A study of Mus musculus with 28 samples.

Results

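The miR-30 family was followed through 28 small RNA-seq libraries of mouse alveolar macrophages (AM). The members were the rows with these names in each of the 4 deposited tables. They are mmu-mir-30a-5p, mmu-mir-30b-5p, mmu-mir-30c-5p, mmu-mir-30d-5p and mmu-mir-30e-5p, from the 5p arm of their hairpins, and mmu-mir-30a-3p and mmu-mir-30e-3p, from the 3p arm. All 7 members were listed in each table and passed the filter on low values there, which asked for a normalised value of 5 or more in n libraries, n being the size of the smaller exposure group. The tables list 368 (co-ex females), 412 (co-ex males), 403 (KO females) and 565 (KO males) miRNAs, 607 in any of them.

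A miRNA is cut from a hairpin precursor, and either arm of the hairpin can be loaded into an Argonaute protein, where the bases near its 5′ end, the seed, pair with target mRNAs. The 5p miRNAs of the miR-30 family share their seed, so they are thought to repress overlapping targets. Known targets include Snai1, a transcription factor of the epithelial to mesenchymal transition, Ctgf, a matrix-associated growth factor, and Becn1, an autophagy gene. The family is made in many tissues, lung among them, and it is not a marker of macrophages.

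The mature sequences of 5 members, from RefSeq (GRCm38.p6), are shown because they define the family and show how alike its rows are. They are written 5′ to 3′ with the seed (bases 2 to 8) in capitals.
mmu-mir-30a-5p: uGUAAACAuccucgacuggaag
mmu-mir-30e-5p: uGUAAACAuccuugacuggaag
mmu-mir-30c-5p: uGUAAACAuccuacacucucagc
mmu-mir-30a-3p: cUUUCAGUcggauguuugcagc
mmu-mir-30e-3p: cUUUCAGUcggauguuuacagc
The first 12 bases were the same in the 3 sequences of the 5p arm shown. Counted from 1 at the 5′ end, mmu-mir-30a-5p and mmu-mir-30e-5p differ by C13U alone, and mmu-mir-30a-3p and mmu-mir-30e-3p by G18A alone. A read that lacks the differing base could be counted under either row, and how the authors' counting treated such reads was not given in the sources used here, so the split within these pairs is uncertain. mmu-mir-30b-5p and mmu-mir-30d-5p had no sequence in the RefSeq table. How close they are to the rows shown, and so how certain their split from these is, was not compared. The 3p members share another seed, UUUCAGU. In the RefSeq table the seed GUAAACA is also that of miR-384-5p.

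The family is encoded at 3 places of the mouse genome, each with a pair of hairpins (GRCm38, GENCODE vM21). Mir30a (chr1:23272269-23272339, plus strand, in no annotated host gene) lies 19361 bases from Mir30c-2 (chr1:23291701-23291784, plus strand, in an exon of the long non-coding RNA Gm27028). Mir30c-1 (chr4:120769534-120769622, minus strand) and Mir30e (chr4:120772606-120772697, minus strand) both lie in introns of the protein-coding gene Nfyc, 2983 bases apart. Mir30b (chr15:68337415-68337510, minus strand, in no annotated host gene) lies 3697 bases from Mir30d (chr15:68341208-68341289, minus strand, in an exon of the long non-coding RNA Gm20732). Both Mir30c hairpins give the same mmu-mir-30c-5p, so its reads cannot be assigned to chromosome 1 or 4.

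The mice were C57BL/6, 12 weeks old, male or female, and breathed filtered air (FA) or ozone (O3) for 3 h before AM were collected by lavage after 4 h of recovery. The co-ex mice carry human SP-A1 and SP-A2 (variants 6A2/1A0), products of separate genes of surfactant protein A (SP-A), a lung protein of innate defence. They were made on the C57BL/6J SP-A knockout background. The KO mice have no SP-A at all, so both genotypes lack mouse SP-A. The labels give 8 groups, of which those of co-ex mice hold 4 libraries each and those of KO mice 3 each. Each table holds the FA and O3 libraries of 1 genotype and sex and was normalised on its own, so values were compared within a table only, and shares of reads were used across tables. Genotype and library series (co-ex libraries carry codes that precede those of KO) cannot be told apart. KO females FA replicates 2 and 3 and KO males FA replicate 3 carry codes later than those of every O3 library of their table. Exposure and library series thus partly coincide in the KO tables, and the part of the series in the KO changes was not tested. In each co-ex table every FA library carries a code before every O3 library. The codes of co-ex males also precede those of co-ex females. The part of code order in the co-ex changes was not tested either. The females were synchronised for the estrous cycle, the study's methods speak of the replicates as mice, and p-values measure the spread between these libraries.

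The libraries held 41542 to 2082034 miRNA reads, with a median of 490152. Of 8 names on the myeloid list (such as mmu-mir-223-3p and mmu-mir-21a-5p), some of them alternative names of the same miRNA, 6 were listed in each table. The listed rows took 4.25 to 22.3% of the reads of a library. An epithelium list (11 of 11 listed in each table) took 0.168 to 5.01% of the reads, a red cell list 0.0993 to 13.7%, a muscle and mesenchyme list 0.0205 to 9.03%, and an endothelium list 0 to 0.718%. The library labelled KO males FA replicate 3 stood apart from the other FA libraries of its table in several of these lists, and the changes in KO males that it moves are given with and without it. Fewer cells of a type and less RNA per cell cannot be told apart in such bulk libraries.

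The 7 members together took 1.71% (Wilson 95% interval 1.59 to 1.84, counting error only) to 11.6% (11.5 to 11.7) of the miRNA reads of a library. All mature members shown above are 22 or 23 bases long and a read covers the whole miRNA, so read shares compare members without a length correction; how well each sequence is ligated was not tested. mmu-mir-30d-5p was the highest member in 28 of 28 libraries and took 54.4 to 91.1% of the members' reads (median 78.0%). Next by median came mmu-mir-30a-5p with 10.1%, mmu-mir-30c-5p with 6.10%, mmu-mir-30e-5p with 2.52% and mmu-mir-30b-5p with 1.95%. The 3p members were the lowest, mmu-mir-30a-3p with 0.440% and mmu-mir-30e-3p with 0.422%. The top place and the order of mmu-mir-30c-5p above mmu-mir-30e-5p held in every library. Other neighbours changed places. mmu-mir-30a-5p was above mmu-mir-30c-5p in 18 of 28 libraries, mmu-mir-30e-5p above mmu-mir-30b-5p in 18, mmu-mir-30b-5p above mmu-mir-30a-3p in 27, and mmu-mir-30a-3p above mmu-mir-30e-3p in 18.

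The share of mmu-mir-30a-5p ranged from 2.11 to 24.3% of the members' reads. It was above mmu-mir-30c-5p in 8 of 8 libraries of co-ex females, in 3 of 8 of co-ex males, in 3 of 6 of KO females and in 4 of 6 of KO males. In KO females its share was 3.47% ± 0.731 (SD, n = 3) after FA and 12.5% ± 4.78 (n = 3) after O3. In KO males it was 12.1% ± 1.20 (n = 3) after O3, while the FA libraries ranged from 3.41 to 24.3%. In co-ex males it was 4.20% ± 2.61 (n = 4) after FA and 6.39% ± 3.40 (n = 4) after O3, and in co-ex females 13.9% ± 3.30 (n = 4) and 16.2% ± 3.76 (n = 4). The shares of the co-ex FA and O3 libraries overlapped in both sexes.

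**Figure D1:**
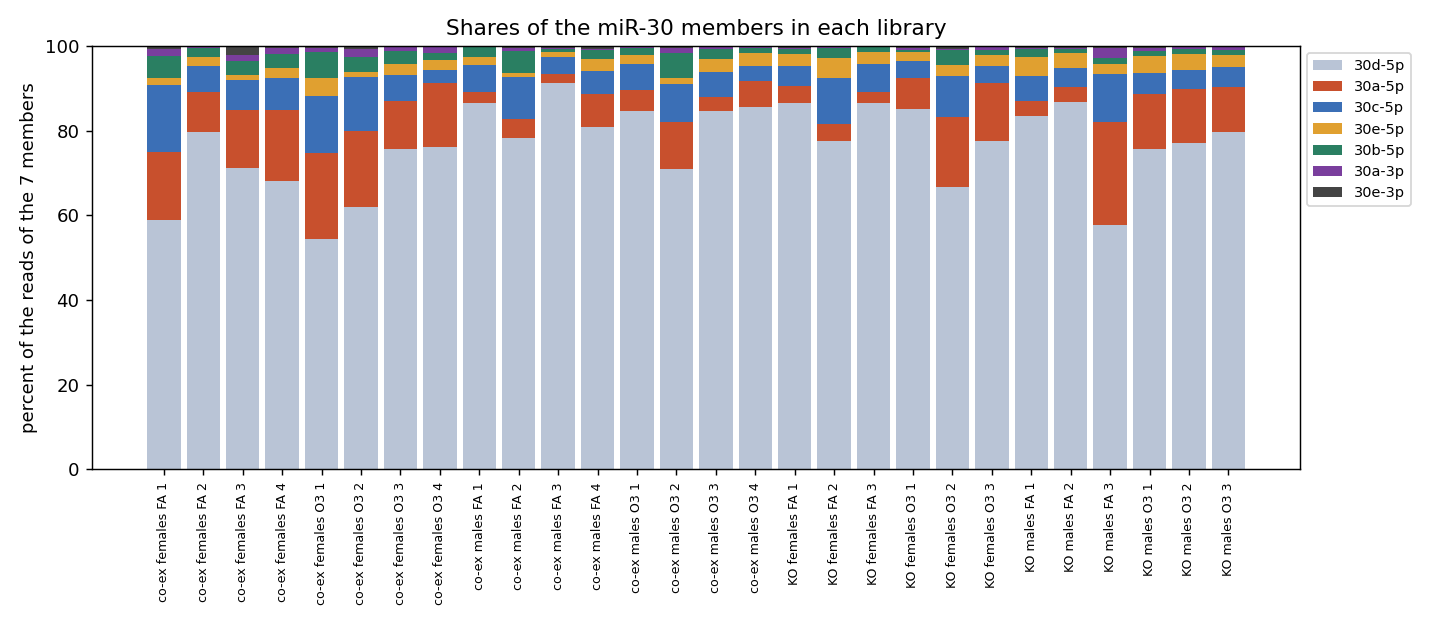
Share of each miR-30 member in the reads of the 7 members (percent, vertical axis) for each of the 28 libraries (bars, by group and replicate). The pale segment, mmu-mir-30d-5p, is the tallest in every bar (54.4 to 91.1%), and the mmu-mir-30a-5p segment ranges from 2.11 to 24.3%.

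The first question for each table was which members differed between O3 and FA. In KO females mmu-mir-30a-5p rose after O3. Its normalised read count was 1447, 1070.0 and 801 in the FA libraries and 3400.3, 6732 and 7679 in the O3 libraries. Every O3 library was above every FA library, and the ratio of the means was 5.37. The log2 change was 2.38 (SE 0.37, adjusted p = 0.0052 by limma over 319 miRNAs). It was called under each of 15 alternatives tried, with log2 changes from 2.15 to 2.74. Of the 7 members 1 was called in KO females, where 13.2% of all tested miRNAs were. Depth was also apart between the exposures in this table, at 744541 to 1002869 miRNA reads after FA and 111080 to 634775 after O3. The part of depth in the change was not tested.

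The other arm of the same hairpin, mmu-mir-30a-3p, had values of 121, 38.1 and 51.0 after FA and 181, 138 and 378 after O3 in KO females. Its groups did not overlap either, but its log2 change of 1.76 (SE 0.66) did not pass the limma threshold (adjusted p = 0.144). It passed by DESeq2 on the recovered reads (log2 change 1.73, adjusted p = 0.0709) and without KO females FA replicate 1 (2.24, adjusted p = 0.0934). These 2 members were the ones whose groups were apart, while the groups of 31.3% of all tested miRNAs were apart in this table.

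The remaining members of KO females overlapped between exposures. mmu-mir-30d-5p, the most abundant, had values of 31998, 21455 and 26395 after FA and 40051, 27040 and 44061 after O3, a log2 change of 0.47 (SE 0.25, limma adjusted p = 0.310). mmu-mir-30e-3p had a log2 change of 1.30 (SE 0.62, limma adjusted p = 0.240), while its partner arm mmu-mir-30e-5p had 0.08 (SE 0.31). mmu-mir-30b-5p had 0.51 (SE 0.58) and mmu-mir-30c-5p 0.26 (SE 0.35). The median change of the 7 members was 0.51, beside 0.06 over all tested miRNAs.

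miRNAs of other cell types moved with mmu-mir-30a-5p in KO females. The marker lists were chosen with earlier results of these data known, so their counts are descriptions here and below. The epithelium list took 0.168 to 0.463% of the reads after FA and 2.11 to 3.67% after O3. Of its 10 tested miRNAs 8 rose by limma (0 fell, median log2 change 3.59), where 13.2% of all tested miRNAs were called. Endothelium and muscle and mesenchyme reads were also apart between the exposures, the first at 0.000897 to 0.00160% after FA and 0.00489 to 0.0674% after O3, the second at 0.0205 to 0.0880% and 0.0978 to 9.03%. Their median log2 changes were 3.25 and 2.17, with 0 of 2 and 0 of 4 tested miRNAs past the limma threshold. The endothelium rows were near the filter value of 5 after FA. Rows so low can pass the filter through their O3 values, which favours a rise, so their median is a description only. Of the 6 tested myeloid miRNAs 0 passed (median -0.38), as did 0 of 2 red cell miRNAs (median -0.84). KO females O3 replicate 3 held 9.03% of muscle and mesenchyme reads, against 0.0205 to 0.290% in the other libraries of the table, and without it mmu-mir-30a-5p had a log2 change of 2.15 (limma adjusted p = 0.0322). The part of other cell types in the mmu-mir-30a-5p change was not tested.

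**Figure D2:**
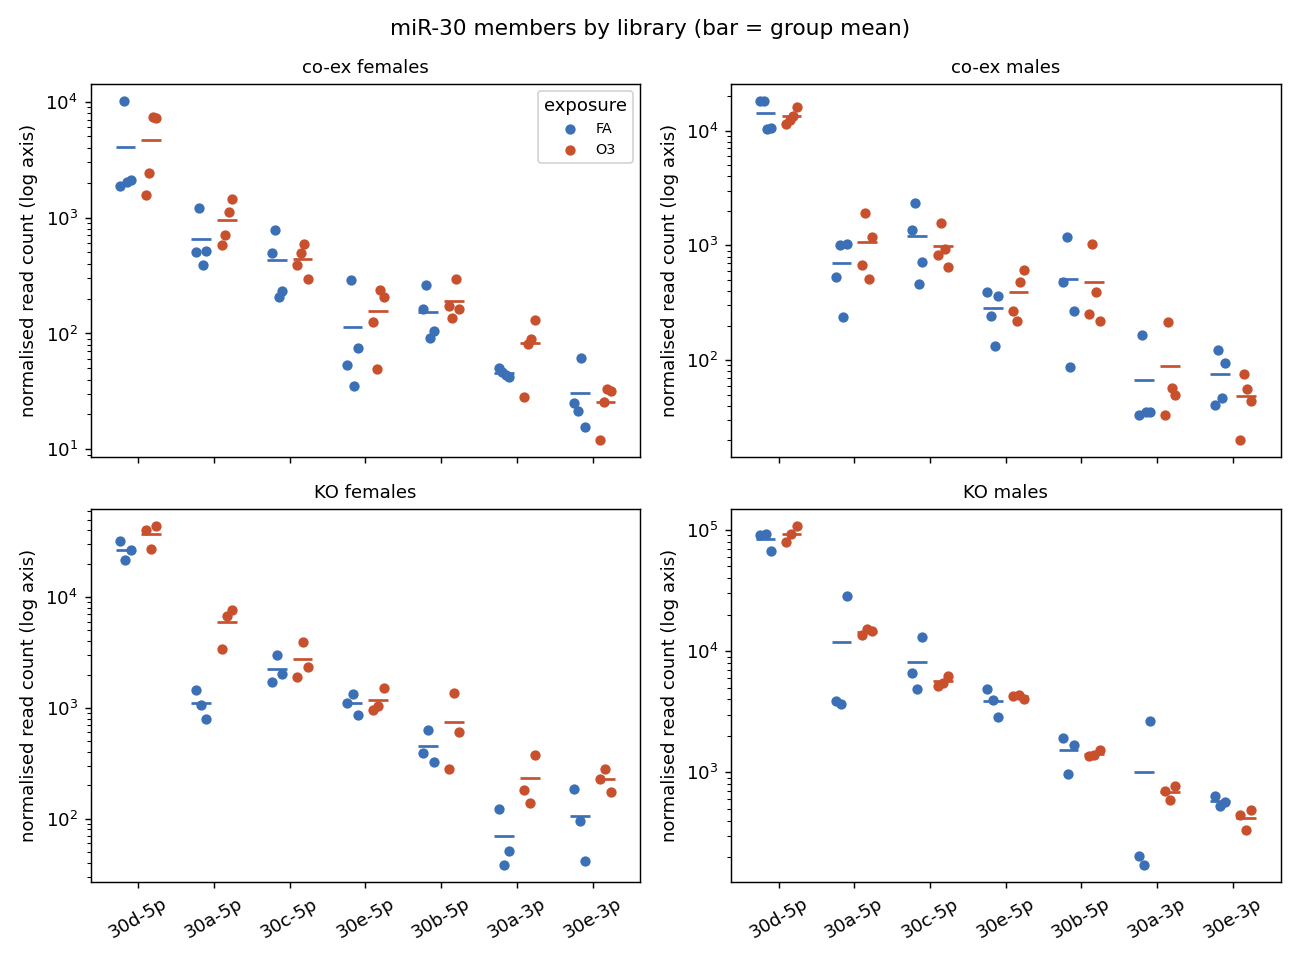
Normalised read count (log axis) of the 7 miR-30 members in each library, with a panel for each table, FA in blue and O3 in red, and the group mean as a bar. In KO females all O3 points of mmu-mir-30a-5p (3400.3 to 7679) lie above all FA points (801 to 1447), and in KO males 1 FA library (28391) lies above the O3 libraries.

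In KO males 0 of 7 members were called by limma, where 0.909% of all tested miRNAs were, and 0 members were called by edgeR or DESeq2, which gave mmu-mir-30a-3p no p. At an unadjusted p under 0.05 the count was also 0. mmu-mir-30a-5p had values of 3879, 3647 and 28391 after FA and 13498, 15206 and 14552 after O3. The O3 libraries lay close together, 2 FA libraries were below them and FA replicate 3 was above them. With all libraries the log2 change was 0.96 (SE 0.78, limma adjusted p = 0.952). Without FA replicate 3 it was 1.94 (limma adjusted p = 2.6e-05), a fit in which 88 miRNAs were called in place of 4.

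The same library set the value of mmu-mir-30a-3p in KO males, which was 204, 172 and 2643 after FA and 699, 594 and 779 after O3. Its log2 change was 0.60 (SE 1.03, limma adjusted p = 0.967), but -0.38 by edgeR and -0.50 by DESeq2, and 1.87 (limma adjusted p = 0.000539) without FA replicate 3. No other member passed without that library. The groups of mmu-mir-30e-3p did not overlap, with 643, 531 and 573 after FA and 442, 337 and 493 after O3, but its log2 change of -0.47 (SE 0.38, limma adjusted p = 0.952) did not pass. It was the 1 member of 7 with groups apart, against 12.7% of all tested miRNAs.

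FA replicate 3 of KO males differed from FA replicates 1 and 2 by hairpin location. Relative to the mean of these 2 libraries it held 7.54 times as much mmu-mir-30a-5p and 14.1 times as much mmu-mir-30a-3p. mmu-mir-30c-2-3p, the 3p arm of the neighbouring hairpin on chromosome 1, was 12.8 times as high. mmu-mir-30c-5p, which comes from chromosomes 1 and 4, was 2.30 times as high. The rows of chromosome 4 alone were at or below the level of the other FA libraries, at 0.645 times for mmu-mir-30e-5p, 0.976 for mmu-mir-30e-3p and 0.609 for mmu-mir-30c-1-3p. Those of chromosome 15 were at 1.17 times for mmu-mir-30b-5p, 1.04 for mmu-mir-30b-3p and 0.733 for mmu-mir-30d-5p, and mmu-mir-30d-3p, at 1 to 17 reads a library, was at 0.331 times. These ratios describe 1 library and carry no test.

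The mean of the O3 libraries of KO males, set against the same 2 FA libraries, was 3.83 times as high for mmu-mir-30a-5p, 3.67 for mmu-mir-30a-3p and 1.97 for mmu-mir-30c-2-3p. It was 0.986 times for mmu-mir-30c-5p, 0.960 for mmu-mir-30e-5p, 1.02 for mmu-mir-30d-5p and 0.984 for mmu-mir-30b-5p. Among the other 3p arms it was lower for mmu-mir-30e-3p (0.723), mmu-mir-30c-1-3p (0.697) and mmu-mir-30b-3p (0.777). For mmu-mir-30d-3p, with few reads, it was 1.17. FA replicate 3 also held more reads of other cell types than FA replicates 1 and 2. Its epithelium list stood at 2.83% of the reads, against 0.225 and 0.273% in these and 2.17 to 2.81% in the O3 libraries. Its endothelium list stood at 0.718%, against 0.00107 to 0.0124% in the other 5 libraries, and muscle and mesenchyme at 2.95%, against 0.0789 to 0.481%. Its myeloid list stood at 4.25%, the lowest of the table. The part of these cells in the values of the member rows was not tested.

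**Figure D3:**
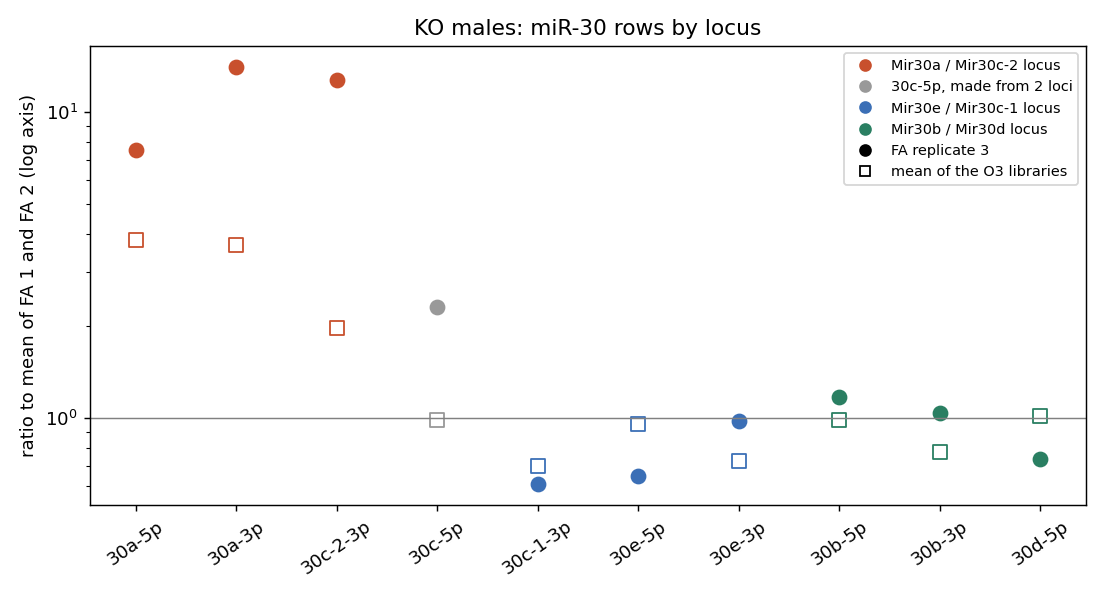
Ratio (log axis) of the value in KO males FA replicate 3 (filled circles) and of the O3 mean (open squares) to the mean of FA replicates 1 and 2, for 10 miR-30 rows coloured by the hairpin's location. The rows of the Mir30a and Mir30c-2 hairpins reach 7.54 to 14.1 in FA replicate 3, mmu-mir-30c-5p, made at 2 locations, reaches 2.30, and the rows of the other locations lie between 0.609 and 1.17 (mmu-mir-30d-3p, with few reads, is not drawn).

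In co-ex females 0 of 7 members were called by limma, where 0.369% of all tested miRNAs were, and 0 by edgeR or DESeq2, with 0 at an unadjusted p under 0.05. mmu-mir-30a-5p had values of 509, 1207, 386 and 515 after FA and 575, 708, 1113 and 1439 after O3, so the groups overlapped (log2 change 0.60, SE 0.45, limma adjusted p = 0.841). mmu-mir-30d-5p had values of 1852, 10193, 2041 and 2115 after FA and 1552, 2429, 7302 and 7262 after O3. Libraries with 1552 to 2429 and libraries with 7262 to 10193 occurred in both groups, and the log2 change was 0.32 (SE 0.64, limma adjusted p = 0.913). mmu-mir-30e-5p was high in the same libraries, with 288 in FA replicate 2 and 238 and 208 in O3 replicates 3 and 4, against 34.9 to 125 in the others. These libraries were also the deepest of the table, with 488993, 248397 and 260115 reads, against 41542 to 182207 in the others. The part of depth in this split was not tested. The 3p members rested on few reads here, between 3 and 211 a library. No member had groups apart, against 4.06% of all tested miRNAs. The epithelium list took 1.30 to 3.28% of the reads after FA and 2.61 to 5.01% after O3, with 0 of 11 tested miRNAs called, and of 2 tested red cell miRNAs 1 was called lower.

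In co-ex males 0 of 7 members were called by limma, where 0.0% of all tested miRNAs were, and 0 by edgeR or DESeq2, with 0 members and 11 of all 312 miRNAs at an unadjusted p under 0.05. mmu-mir-30a-5p had values of 530, 1011, 240 and 1019 after FA and 680, 1933, 511 and 1172 after O3 (log2 change 0.65, SE 0.57, limma adjusted p = 0.944). mmu-mir-30d-5p had values of 18260, 18304, 10351 and 10521 after FA and 11485, 12299, 13451 and 16253 after O3, so that the O3 libraries lay within the range of the FA libraries (log2 change -0.06, SE 0.33). mmu-mir-30e-3p had the lowest log2 change of the members, -0.62 (SE 0.60, limma adjusted p = 0.944). No member had groups apart, against 2.88% of all tested miRNAs. The epithelium list ranged from 0.496 to 2.97% of the reads after FA and from 0.396 to 3.97% after O3, with 0 of 9 tested miRNAs called.

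**Figure D4:**
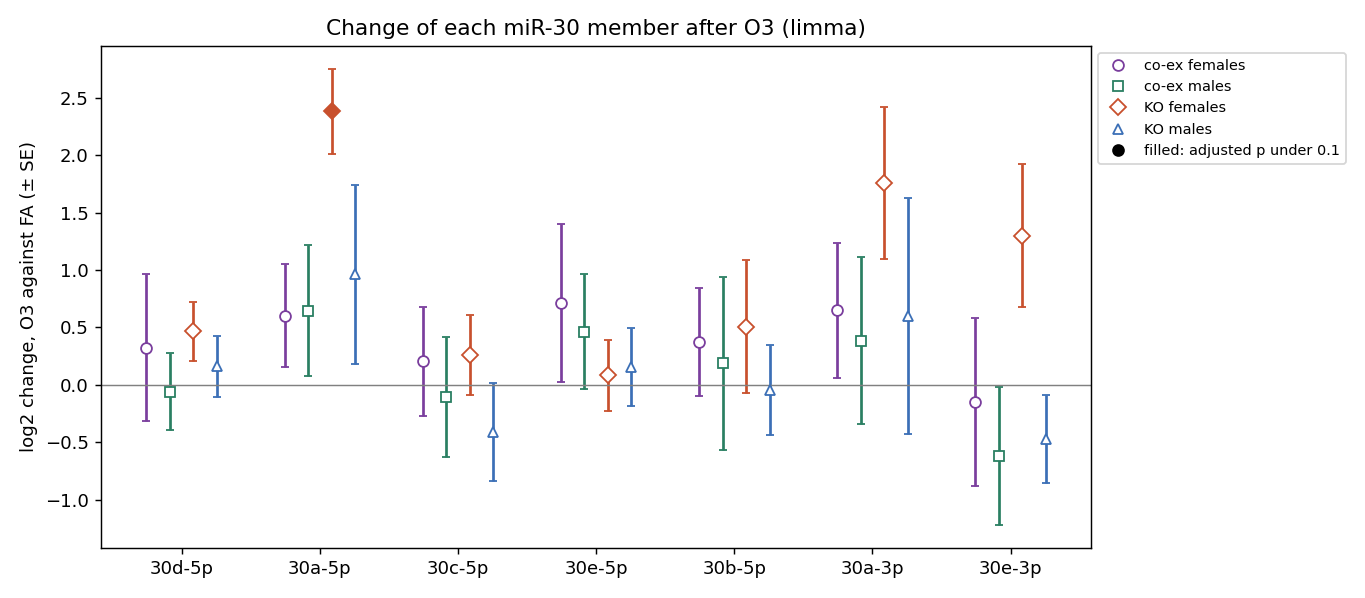
log2 change after O3 against FA (vertical axis, point with SE) of each miR-30 member in the 4 tables, from limma. The filled point, mmu-mir-30a-5p in KO females at 2.38, is the 1 of 28 that passed an adjusted p under 0.1; the points of mmu-mir-30a-5p are above 0 in all 4 tables.

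A fit over all 28 libraries with the table as a term gave the average change within tables. mmu-mir-30a-5p rose, with a log2 change of 1.07 (SE 0.32, limma adjusted p = 0.0367), and it was the 1 of 7 members called, where 16.1% of the 230 tested miRNAs were. The estimate was above 0 in each table (0.60, 0.65, 2.38 and 0.96) and under each alternative tried in each of them, and in the joint fit it ranged from 0.76 to 1.25. It was called under 36 of 37 alternatives. By edgeR on the recovered reads the joint change was 0.76 and did not pass (adjusted p = 0.181). mmu-mir-30a-3p had a joint log2 change of 0.80 (SE 0.38, limma adjusted p = 0.201). The changes of the other 5 members in the joint fit were between -0.04 and 0.39, none past the threshold. In this fit 7 of 9 tested epithelium miRNAs rose.

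Whether the change differed between tables was tested as the difference of the O3 to FA changes. Between co-ex and KO females it was -1.78 (SE 0.64) for mmu-mir-30a-5p, with an unadjusted p of 0.0131 and a limma adjusted p of 0.113, so 0 of 7 members passed, where 8.71% of all tested miRNAs did. It passed with values scaled to the library total (-1.98, adjusted p = 0.0745), by edgeR (-1.98, adjusted p = 0.0795) and by DESeq2 (-1.63, adjusted p = 0.0791). The epithelium list differed in the same direction in this comparison, with 5 of 10 tested miRNAs lower by limma. Between co-ex and KO males, between co-ex males and females, and between KO males and females 0 of 7 members passed in each, as did 0.0% of all tested miRNAs, while 6, 8 and 17 miRNAs had an unadjusted p under 0.05. By edgeR and DESeq2 0 members passed as well, and at most 2 of all miRNAs. For mmu-mir-30a-5p these differences were -0.32 (SE 1.01), 0.04 (SE 0.76) and -1.42 (SE 0.94). Without KO males FA replicate 3 the first was -1.29 (SE 0.79, limma adjusted p = 0.579) and the last -0.44 (SE 0.46, limma adjusted p = 0.896) for mmu-mir-30a-5p. At an unadjusted p under 0.05 there were 0, 0 and 1 members, the last being mmu-mir-30e-3p (-1.77, SE 0.72, limma adjusted p = 0.758).

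The ratio of the arms of a hairpin does not depend on the scaling of a library. mmu-mir-30a-5p was read 6.14 to 48.8 times as often as mmu-mir-30a-3p (median 17.4), and mmu-mir-30e-5p 0.571 to 20.6 times as often as mmu-mir-30e-3p (median 7.33). For the Mir30a arms the log2 change of the ratio after O3 was -0.05 (SE 0.55) in co-ex females, 0.26 (SE 0.61) in co-ex males, 0.63 (SE 0.66) in KO females and 0.37 (SE 0.38) in KO males, where it was 0.07 (SE 0.26) without FA replicate 3. For the Mir30e arms it was 0.86 (SE 1.01), 1.08 (SE 0.67), -1.22 (SE 0.73) and 0.63 (SE 0.36), the last 0.43 (SE 0.28) without FA replicate 3. None of these passed by limma (adjusted p from 0.563 to 0.969). Over all hairpins with both arms, 0.0% were called in co-ex females, KO females and KO males and 1.52% in co-ex males.

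Rows of the other miR-30 arms were read at low levels. mmu-mir-30c-2-3p, listed in all tables, had log2 changes of 0.45 (SE 0.85) in co-ex females, 1.95 (SE 0.98) in co-ex males, 1.93 (SE 1.38) in KO females and -0.26 (SE 1.02) in KO males. In KO males the change of mmu-mir-30c-2-3p was 0.96 (SE 0.46, limma adjusted p = 0.225) without FA replicate 3, -1.16 by edgeR and -1.27 by DESeq2. Its joint change was 1.04 (SE 0.54, limma adjusted p = 0.235), and 1.32 (limma adjusted p = 0.0639) without that library. mmu-mir-30f, from the strand opposite Mir30e, was at a value of 3.39 or less in every library and passed the filter in no table. mmu-mir-30b-3p and mmu-mir-30c-1-3p were listed in 3 tables and mmu-mir-30d-3p in KO males only, where its value was 0.743 to 18.4. No row of these arms was called by limma in any table with all libraries in the fit.

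Members differed in what they moved with. Over the 28 libraries, after the mean of each table was removed from log2(value + 1), the member most like mmu-mir-30a-5p was its partner arm mmu-mir-30a-3p (Pearson r = 0.807). mmu-mir-30b-5p and mmu-mir-30c-5p were most like each other (0.857), as were mmu-mir-30d-5p and mmu-mir-30e-5p (0.712). mmu-mir-30e-3p was most like mmu-mir-30a-3p (0.463) and not its own partner arm. The 3 miRNAs outside the family most like the sum of the 5 members of the 5p arm were mmu-mir-29a-3p (0.739), mmu-mir-26a-5p (0.730) and mmu-mir-16-5p (0.657), of 85 compared. These correlations are descriptions: the 2 values of a library share its size factor and its depth.

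For mmu-mir-30a-5p the 3 most alike of the 85 were mmu-mir-200a-3p (r = 0.937), mmu-mir-200b-3p (0.926) and mmu-mir-200c-3p (0.922), of the miR-200 family, which is known from epithelial cells. These were named after their values were seen. With the sum of 5 miR-200 family rows r was 0.938, Spearman's rho 0.917. It was 0.911 with group means removed, so that differences between FA and O3 no longer enter, 0.948 with reads scaled to the library total, and 0.936 without KO males FA replicate 3. Without the 2 libraries farthest from the median of the miR-200 sum it was 0.933. Within the tables it was 0.901 (co-ex females, 8 libraries), 0.935 (co-ex males, 8), 0.922 (KO females, 6) and 0.983 (KO males, 6). The partner arm mmu-mir-30a-3p had an r of 0.792 with that sum, and the miRNAs most like it were others, mmu-mir-99a-5p (0.894) and mmu-mir-143-3p (0.868), also named after their values were seen. With the same sum the r of mmu-mir-30d-5p was 0.335 and that of mmu-mir-30c-5p 0.374 over the 28 libraries, and within the tables that of mmu-mir-30d-5p ran from -0.315 (KO males) to 0.736 (co-ex females).

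**Figure D5:**
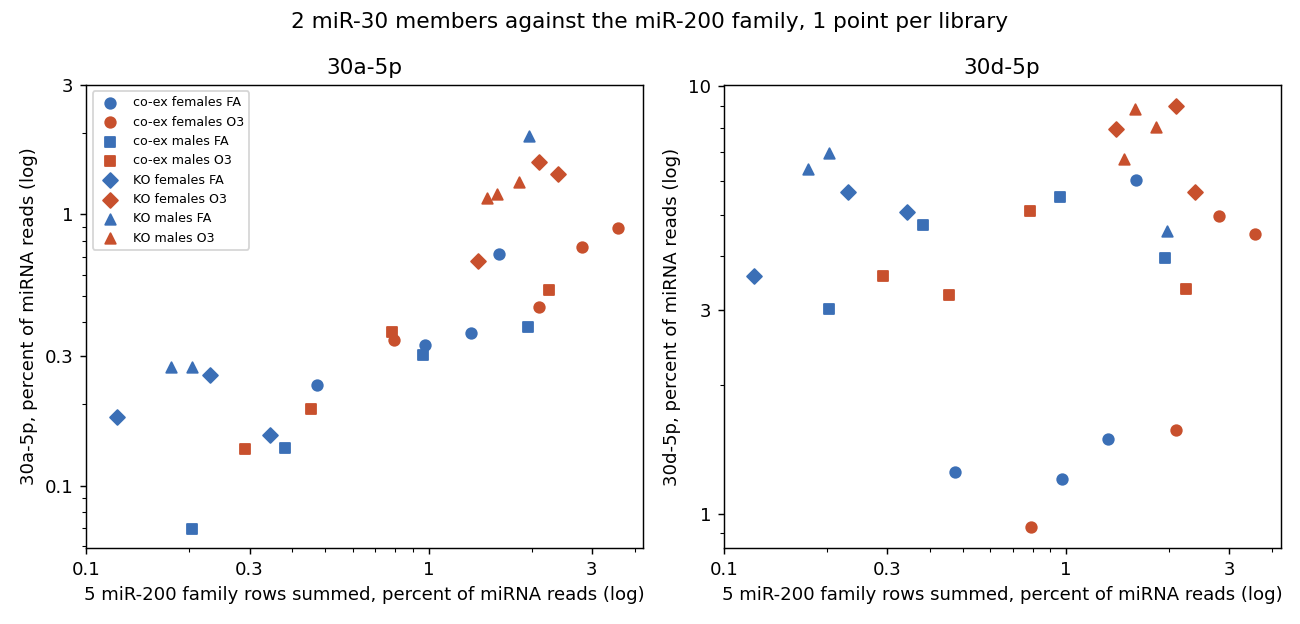
Share of miRNA reads (percent, log axes) of mmu-mir-30a-5p (left) and mmu-mir-30d-5p (right) against that of 5 miR-200 family rows summed, with 1 point a library, FA in blue, O3 in red and the table as the marker shape. KO males FA replicate 3 (1.97% miR-200, 1.94% mmu-mir-30a-5p) is the blue triangle on the left that lies higher than every red point. On the right the points spread over 0.929 to 8.99%.

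The share of the whole family in the miRNA reads was higher after O3 than after FA in both KO tables, from 4.64 to 6.53% against 8.48 to 11.6% in KO females and from 7.68 to 8.06% against 8.92 to 11.1% in KO males, with no overlap. In co-ex females it was 1.75 to 7.57% after FA and 1.71 to 6.58% after O3, and in co-ex males 3.30 to 7.02% and 3.84 to 5.96%. Scaling to the library total in place of the deposited size factors moved the median change of all tested miRNAs by 0.21 in KO females and 0.24 in KO males on the log2 scale. On the deposited scale mmu-mir-30d-5p, which supplies most of these reads, had overlapping groups in both KO tables. On that scale 31.3% (KO females) and 12.7% (KO males) of the tested miRNAs had groups apart. No such background was computed for shares of reads, so how unusual the separation of the family share is was not tested.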

How the data were processed

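Small RNA of AM was sequenced from NEXTflex v3 libraries on an Illumina HiSeq. Per the labels and the study's methods, reads were filtered (CASAVA 1.8, FASTX-Toolkit), trimmed of adapters, aligned and counted with Chimira, and compared with edgeR and TCC; the genome build was not given in the sources used here. The deposited signal in each table is the read count of a miRNA divided by a size factor of its library, each table on its own. Further columns hold the authors' means, fold changes and p-values and were not used. In all 28 libraries 100.0% of the values were whole multiples of 1 step (within 0.001 read), which gave back reads and depth.

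Values were compared with limma 3.58.1 (R 4.3.3, trended prior) on log2(value + 1), so fold changes of low miRNAs are understated. The filter asked for a value of 5 or more in n libraries, n being the size of the smaller group. p-values were adjusted by Benjamini-Hochberg over all tested miRNAs, with a threshold of 0.1, in each table, over all tables with table as a term, for 4 differences between tables and for arm ratios. The named rows are the members, other miR-30 arms, the marker lists (myeloid, epithelium, red cells, endothelium, muscle and mesenchyme) and the miRNAs most like the summed 5p members; members and lists were chosen with earlier results of these data known. Alternatives were scaling (library total, TMM), no filter, pseudocounts of 0.1 and 5, edgeR 4.0.16 quasi-likelihood and DESeq2 1.42.0 on recovered reads, a threshold of 0.05, a replicate block and leaving out each library. The fits were also run on simulated reads with a fixed spread for all miRNAs. That spread was not fitted to these libraries, so the simulation does not show how the fits perform on them. Loci are from GENCODE vM21, sequences from RefSeq, where 5 of 7 members matched.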

Additional observations from a re-analysis of the deposited data

Results flagged for a closer look

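Of 28 sets of 4 libraries (7 members in the 4 co-ex groups), 2 held a library whose gap to the nearest other was most of the range of the set by Dixon's criterion, where chance gives about 1 in 20. mmu-mir-30d-5p was at 10193 in co-ex females FA replicate 2, against 1852 to 2115 in the other FA libraries, and the log2 change after O3 was 0.91 without it, in place of 0.32. That library was also the deepest of its table, with 488993 reads. mmu-mir-30a-3p was at 165 in co-ex males FA replicate 2, against 32.9 to 35.4. By limma with all libraries, no difference of change between tables passed for a member.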

How the results depend on the processing

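The single values of the members, other miR-30 arms and arm ratios gave 1797 values under alternatives, of which 1782 kept their side of the threshold, 14 passed newly, 1 was lost and 0 reversed a call; 133 uncalled changes switched sign. In KO females 2 members were called by DESeq2 in place of 1, where 62 of all 319 miRNAs were. In the joint fit edgeR called 0 members and 23 of all 230 miRNAs. For the difference between co-ex and KO females, scaling to the library total, edgeR and DESeq2 each called 1 member. They called 23, 25 and 33 of all 241 miRNAs. With each library left out in turn, members called ranged from 1 to 2 in KO females (2 without FA replicate 1), from 0 to 2 in KO males (2 without FA replicate 3), from 1 to 2 in the joint fit, and from 0 to 1 for the difference between co-ex and KO females (1 without co-ex females FA replicate 3 or O3 replicate 4, or KO females FA replicate 1 or O3 replicate 1). In the joint fit mmu-mir-30a-3p was added without co-ex males FA replicate 2 (0.96, limma adjusted p = 0.0851) or KO males FA replicate 3 (1.04, limma adjusted p = 0.036). The cause was not tested.

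Counts over all miRNAs moved by more than 1.5 times in some settings. In KO males 4 became 2 at a threshold of 0.05 and by edgeR, 15 by DESeq2, 1 with the replicate block and 0 to 88 with a library left out. In KO females 42 became 27 to 49 with a library left out. In the joint fit 37 became 19 at a threshold of 0.05, 23 by edgeR and 22 to 57 with a library left out. For the difference between co-ex and KO females 21 became 12 at a threshold of 0.05, 33 by DESeq2, 14 with the replicate block and 9 to 29 with a library left out. Between co-ex males and females edgeR and DESeq2 called 1, and between KO males and females DESeq2 called 2. edgeR and DESeq2 moved the median change of all miRNAs within tables by -0.25 to 0.14. Same-numbered FA and O3 libraries correlated at -0.28 to 0.23. No pairing by replicate number was seen, but groups of 3 or 4 libraries are too small to settle it. The block called 1 member in KO females, 1 in the joint fit and 0 elsewhere. The 3p arms in co-ex females, at 3 reads in the shallowest library, are limited by depth.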
